A study of Homo sapiens with 4 samples.

Results

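The aldehyde dehydrogenases described here were the 10 family genes ALDH1A1, ALDH1A2, ALDH1A3, ALDH1B1, ALDH1L1, ALDH2, ALDH3A1, ALDH3A2, ALDH3B1 and ALDH7A1, chosen by name among the 60558 gene identifiers measured. Another 9 genes of the family were used for comparison. RNA was sequenced from A549 and HCC827 cells, established human lung adenocarcinoma (LAD) lines, to profile transcripts induced by active AKT. A549 is KEAP1-mutant and HCC827 is EGFR-mutant, so every library of a line carries that line's own mutations in both conditions. Each line had been transduced either with vector alone or with myr-AKT1, an AKT1 kept at the membrane by a myristoylation signal and therefore constitutively active. Each condition of each line was 1 library, 4 in all, so a ratio within a line has no replicate check and compares the libraries. Whether the transduced cells were a pool or a clone is not given in the sources used here.

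Aldehyde dehydrogenases oxidise aldehydes to carboxylic acids with NAD+ or NADP+ as the electron acceptor. ALDH1A1, ALDH1A2 and ALDH1A3 oxidise retinaldehyde to retinoic acid, ALDH2 and ALDH1B1 act on acetaldehyde and other aldehydes in mitochondria, and ALDH3A1, ALDH3A2 and ALDH3B1 act on aromatic, fatty and lipid-derived aldehydes. ALDH activity is widely used to isolate stem-like cells from lung tumors, and ALDH1A1 and ALDH3A1 are known to be abundant in A549.

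The promoters of ALDH1A1, ALDH1A3 and ALDH1B1 are shown because ALDH1A1 and ALDH1A3 had opposite levels in the lines and ALDH1A1 and ALDH1B1 had opposite signs with myr-AKT1. Each sequence is the 230 bases from 250 to 21 bases before the RefSeq start on GRCh38.p14, read 5′ to 3′ along the gene's strand. No annotated exon lies in these windows. ALDH1A1 was read from chr9:72953074-72953303 on the minus strand, inside an intron of longer annotated transcripts of the gene. ALDH1A3 was read from chr15:100879581-100879810 on the plus strand, also inside an intron of longer transcripts. ALDH1B1 was read from chr9:38392452-38392681 on the plus strand, upstream of the annotated gene. Capitals mark CCAAT boxes (CCAAT, or ATTGG on the other strand) and GC boxes (GGGCGG, or CCGCCC on the other strand), which may overlap.
ALDH1A1: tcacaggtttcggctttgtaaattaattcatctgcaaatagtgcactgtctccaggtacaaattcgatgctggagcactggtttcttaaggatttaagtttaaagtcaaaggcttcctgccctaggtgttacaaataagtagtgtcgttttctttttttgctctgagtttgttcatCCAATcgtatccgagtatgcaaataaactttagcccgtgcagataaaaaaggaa
ALDH1A3: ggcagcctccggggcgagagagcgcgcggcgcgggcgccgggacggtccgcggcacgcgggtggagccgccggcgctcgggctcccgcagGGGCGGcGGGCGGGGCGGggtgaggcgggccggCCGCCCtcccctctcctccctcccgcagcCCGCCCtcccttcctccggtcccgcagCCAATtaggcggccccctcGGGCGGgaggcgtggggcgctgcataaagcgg
ALDH1B1: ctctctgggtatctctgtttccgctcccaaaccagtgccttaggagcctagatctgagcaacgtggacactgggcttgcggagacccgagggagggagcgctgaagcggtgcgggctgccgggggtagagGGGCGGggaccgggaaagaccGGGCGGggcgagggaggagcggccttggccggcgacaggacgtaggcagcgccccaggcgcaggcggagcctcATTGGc

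The ALDH1A1 window was 38.3% G or C, against 82.2% for ALDH1A3, 69.1% for ALDH1B1 and a median of 57.8% over the 35116 RefSeq promoters given. ALDH1A1 held 1 CCAAT box, 74 to 70 bases before the start, and no GC box. ALDH1A3 held 6 GC boxes and 1 CCAAT box, and ALDH1B1 held 2 GC boxes and 1 CCAAT box. Of all windows of this length, 30.7% held a CCAAT box and 40.0% a GC box, so each letter pattern is common. TATA boxes (TATAAA), the antioxidant response element TGACNNNGC and the forkhead motif TGTTTAC, each searched on both strands, were found in 10.4%, 9.96% and 2.74% of all windows and in none of these 3. Of the 10 genes, 8 had an entry in the promoter table, and ALDH2 and ALDH3A1 had none.

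The libraries held 33530317 (vector) and 25190760 (myr-AKT1) recovered reads for A549 and 27312465 and 16322183 for HCC827, so that 3 reads, the limit that a count of 0 allows, were 0.0895 to 0.184 RPM (reads of a gene for every 1000000 recovered reads of the library). Normalized AKT1 counts, which do not separate the construct from the endogenous transcript, were 4243 with vector and 6297 with myr-AKT1 in A549 (log2 ratio 0.57, 95% counting interval 0.51 to 0.63) and 2175 and 4805 in HCC827 (1.14, 1.07 to 1.21). All 6 epithelial markers were above 3 reads in every library, at a summed 4263 to 7487 RPM. Of the alveolar markers, SFTPC had 0 reads in every library and SFTPB had 0 in A549, and NKX2-1 had 0 and 8 reads in A549. In HCC827 the alveolar markers were lower with myr-AKT1, at 1993 and 702 reads for NKX2-1 (log2 ratio of normalized counts -0.84), 4520 and 1597 for NAPSA (-0.84) and 42 and 2 for SFTPB (-3.73), and the list summed to 240.0 and 141 RPM there and to 1.43 and 1.51 RPM in A549. Summed fibroblast markers stood at 3.58 with vector and 39.3 RPM with myr-AKT1 in A549 and at 2.42 and 9.01 in HCC827, haematopoietic markers at 0.179 and 3.77 and at 0.952 and 1.29, and endothelial markers at 0.447 and 4.76 and at 3.51 and 6.74. Of these lists, 4 of 5 fibroblast, 3 of 4 haematopoietic and 2 of 3 endothelial genes were above 3 reads in A549 myr-AKT1, while COL1A2 and CD3E had 0 reads in all 4 libraries. COL1A1 rose in the fit described below over both lines (log2 2.64, limma adjusted p = 0.0381), and the part of these markers in the results below was not tested. In bulk RNA, fewer cells that express a gene and less RNA per cell cannot be told apart.

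ALDH1A1 and ALDH3A1 were the most abundant of the 10 genes in A549, and ALDH1A3 in HCC827. Per-length levels are RPM per kilobase of annotated exon, and their 95% intervals, like every interval here, are Clopper-Pearson intervals of the reads that cover counting error only, since reads are not independent molecules. The ALDH1A1 level was 2529 in A549 vector (2519 to 2539), 4269 in A549 myr-AKT1 (4253 to 4284), 0.735 in HCC827 vector (0.557 to 0.952) and 4.34 in HCC827 myr-AKT1 (3.76 to 4.98). Both A549 libraries stood far above both HCC827 libraries, 3442-fold with vector and 984-fold with myr-AKT1. ALDH1A1 was the protein-coding gene with the fifth highest per-length level of 19882 in A549 vector and the fourth highest in A549 myr-AKT1, and took 0.718% and 1.21% of all reads. ALDH3A1 levels were 967 (A549 vector) and 582 (A549 myr-AKT1), with 0 reads in both HCC827 libraries. If 0 is taken as 3 reads, A549 stood 34156-fold higher with vector and 12276-fold higher with myr-AKT1. The 95% intervals of the log2 ratio of A549 over HCC827 began at 14.76 and 13.29. With 0 ALDH3A1 reads beside 201 ALDH1A1 reads in HCC827 myr-AKT1, that library differed from the A549 libraries, where 0.522 and 0.186 ALDH3A1 reads were counted per ALDH1A1 read.

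ALDH1A3 had the reverse order. Its level was 3.58 in A549 vector, 1.63 in A549 myr-AKT1, 71.4 in HCC827 vector and 59.9 in HCC827 myr-AKT1, a log2 ratio of A549 over HCC827 of -4.32 (-4.44 to -4.20) with vector and -5.20 (-5.40 to -5.00) with myr-AKT1. ALDH1B1 was near the same level in both lines, at 22.9 and 20.8 with vector and 14.3 and 11.6 with myr-AKT1 (A549 first). ALDH2, ALDH3A2, ALDH3B1 and ALDH7A1 were higher in A549 in both conditions, by 7.22-, 7.16-, 4.46- and 1.84-fold with vector and by 14.3-, 5.59-, 6.12- and 1.95-fold with myr-AKT1. ALDH1A2 stayed between 0.0195 and 0.0661 and ALDH1L1 at 0.0109 or below in all 4 libraries.

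By per-length level the order in A549 vector was ALDH1A1, ALDH3A1, ALDH3A2 (36.1), ALDH3B1 (28.1), ALDH1B1 (22.9), ALDH2 (15.0), ALDH7A1 (3.88), ALDH1A3 (3.58), ALDH1A2 and ALDH1L1, and of these neighbours only ALDH7A1 and ALDH1A3 had overlapping intervals. In A549 myr-AKT1, ALDH2 (46.9) came next after ALDH3A1, beside ALDH3B1 (46.4) with overlapping intervals, ahead of ALDH3A2 (28.1) and ALDH1B1 (14.3). HCC827 vector began with ALDH1A3, ALDH1B1, ALDH3B1 (6.31) and ALDH3A2 (5.05), followed by ALDH7A1 (2.11) and ALDH2 (2.08), whose intervals overlapped, and ALDH1A1. In HCC827 myr-AKT1, ALDH1A1 (4.34) had an interval overlapping that of ALDH3A2 (5.04) and stood above ALDH2 (3.28) and ALDH7A1 (1.99). ALDH3A2 and ALDH7A1 carry 15331 and 17914 bases of annotated exon against longest transcripts of 5084 and 4765 bases, and with the longest transcript as length their A549 vector levels were 109 and 14.6. That length left the order in A549 vector as it was and moved places in the other libraries. ALDH3A2 (84.8) then stood ahead of ALDH3B1 (52.2) and ALDH2 (47.7) in A549 myr-AKT1, ALDH3A2 (15.2) and ALDH7A1 (7.91) ahead of ALDH3B1 (7.10) in HCC827 vector, and ALDH3A2 (15.2) ahead of ALDH1B1 (11.9) and ALDH7A1 ahead of ALDH1A1 (5.88) in HCC827 myr-AKT1.

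The 10 genes together took 1.20% of reads with vector and 1.57% with myr-AKT1 in A549, and 0.0626% and 0.0563% in HCC827. ALDH1A1 made up 60.0% of these reads in A549 vector and 77.2% in A549 myr-AKT1, and ALDH1A3 made up 60.9% and 56.7% in the HCC827 libraries. Leaving out ALDH1A1 and ALDH3A1, the other 8 genes summed to 1047 and 1317 RPM in A549 and 623 and 551 in HCC827. The 3 retinaldehyde dehydrogenases summed to a per-length level of 2533 with vector and 4270.2 with myr-AKT1 in A549, nearly all of it ALDH1A1. In HCC827 their sum was 72.2 and 64.3, and ALDH1A1 made up 1.02% of it with vector and 6.75% with myr-AKT1.

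**Figure D1:**
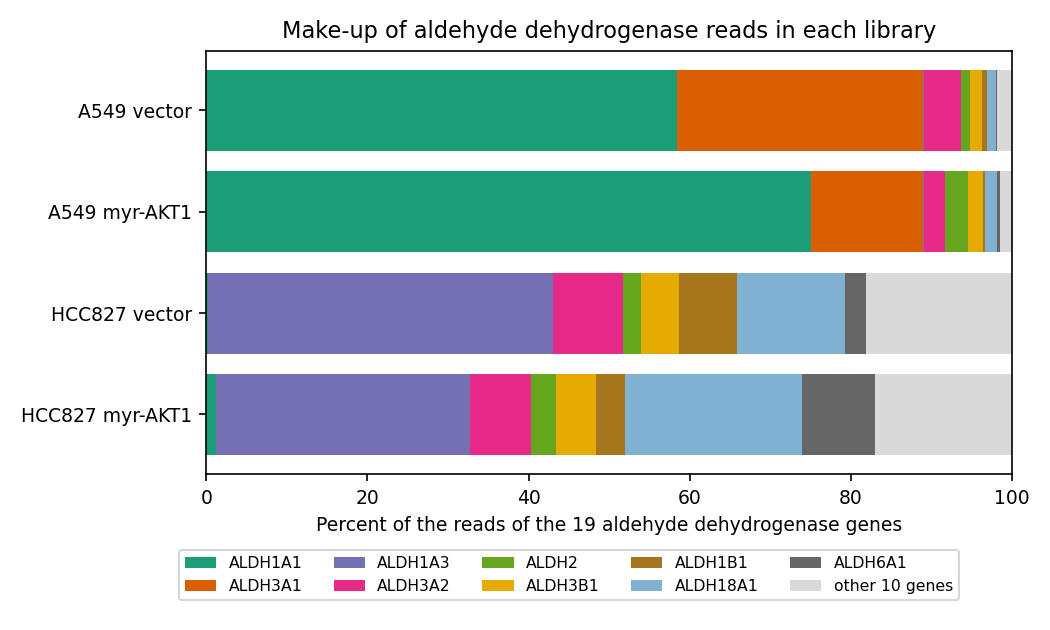
Make-up of the reads of 19 aldehyde dehydrogenase genes in each library, as a percent of the summed reads of the family; each bar is 1 library and sums to 100. ALDH1A1 takes 58.5% of the bar in A549 vector and 75.0% in A549 myr-AKT1, and ALDH1A3 takes 42.7% and 31.5% in the HCC827 libraries.

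Which of the genes differed between myr-AKT1 and vector was asked within each line, on the authors' normalized counts (reads divided by 1 size factor per library). Of the retinaldehyde dehydrogenases, ALDH1A1 (chromosome 9, bases 72900671 to 73080442, minus strand, hg38) was higher with myr-AKT1 in both lines. It had normalized counts of 210335 with vector and 349697 with myr-AKT1 in A549, a log2 ratio of 0.73 (0.73 to 0.74). In HCC827 it had 45.3 and 253, from 57 and 201 reads, a log2 ratio of 2.48 (2.05 to 2.93). The ratio was thus 1.66-fold where the gene was already among the most abundant and 5.58-fold where it was low. ALDH1A3 (chromosome 15, bases 100877714 to 100916626, plus strand) had 559 and 251 in A549, a log2 ratio of -1.16 (-1.38 to -0.93), and 8267 and 6563 in HCC827, a log2 ratio of -0.33 (-0.38 to -0.28). ALDH1A3 was therefore lower with myr-AKT1 in both lines, against the direction of ALDH1A1. ALDH1A2, the main retinaldehyde dehydrogenase of the early embryo, was read only 18 and 4 times in A549 (-1.78, -3.80 to -0.18) and 12 and 4 times in HCC827 (-0.92, -3.01 to 0.80).

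The mitochondrial enzymes ALDH2 and ALDH1B1 had opposite signs. ALDH2 (chromosome 12, bases 111766887 to 111817532, plus strand), the main acetaldehyde-oxidising enzyme, had normalized counts of 4279 and 13159 in A549, a log2 ratio of 1.62 (1.57 to 1.67) or 3.08-fold. In HCC827 it had 439 and 654, a log2 ratio of 0.57 (0.40 to 0.75). ALDH1B1 (chromosome 9, bases 38392702 to 38398661, plus strand), a close relative of ALDH2, had 2091 and 1286 in A549 (-0.70, -0.81 to -0.60) and 1411 and 742 in HCC827 (-0.93, -1.06 to -0.79). ALDH2 was thus higher and ALDH1B1 lower in the myr-AKT1 library of each line.

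Among the ALDH3 genes, ALDH3A1, a cytosolic enzyme of aromatic and lipid-peroxidation aldehydes, had normalized counts of 109851 and 65087 in A549, a log2 ratio of -0.76 (-0.77 to -0.74). Its 0 reads in each HCC827 library give no ratio. ALDH3A2, the microsomal fatty aldehyde dehydrogenase, had 16222 and 12437 in A549 (-0.38, -0.42 to -0.35) and 1680.0 and 1585 in HCC827 (-0.08, -0.19 to 0.02). It lies 52223 bases from ALDH3A1 on chromosome 17. ALDH3B1, a membrane-bound enzyme of lipid aldehydes, had 5458 and 8855 in A549 (0.70, 0.65 to 0.75) and 907 and 1031 in HCC827 (0.18, 0.05 to 0.32). ALDH3B1 has a paralog, ALDH3B2, which had 59 and 90 reads in HCC827. In A549 it had 0 reads in both libraries, beside 6250 and 7733 reads of ALDH3B1. Whether any reads of the pair were exchanged in HCC827 was not tested.

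ALDH7A1, which oxidises a semialdehyde of lysine breakdown, had normalized counts of 2033 and 2005 in A549 (-0.02, -0.11 to 0.07) and 819 and 734 in HCC827 (-0.16, -0.31 to -0.01). The A549 value was 0.08 with size factors estimated over all 4 libraries, a scaling that moves the median of all genes in A549 to 0.102. ALDH7A1P1, a pseudogene that could share its reads, had 26 and 34 reads in A549 and 0 and 1 in HCC827. ALDH1L1, the cytosolic formyltetrahydrofolate dehydrogenase, had 5 and 3 reads in A549 (-0.35, -3.03 to 2.02) and 0 and 1 in HCC827, where no ratio is given.

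Past a log2 ratio of 1 in either direction, A549 had 1 of 10 genes higher (ALDH2) and 2 lower (ALDH1A2 and ALDH1A3) with myr-AKT1. Over the 24302 genes with reads in both A549 libraries, 18.2% were higher and 12.4% lower by this measure. HCC827 had 1 higher (ALDH1A1) and 0 lower of the 8 genes with a ratio, beside 17.5% higher and 14.1% lower of 22736 genes. Counting intervals lay above 0 for 3 and below 0 for 5 genes in A549, where 27.2% and 29.0% of all genes did so, and for 3 and 3 in HCC827, where 27.1% and 29.2% did. The members' median log2 ratio was -0.36 in A549 and -0.12 in HCC827, beside 0.00 over all genes in each line. Past a log2 ratio of 2, A549 had 0 higher and 0 lower (6.89% and 3.62% of all genes) and HCC827 had ALDH1A1 higher and 0 lower (6.13% and 3.87%). Among genes with an average of 50 or more normalized counts in A549, where 11.2% were higher and 7.90% lower past log2 1, ALDH2 was higher and ALDH1A3 lower. These counts rest on 10 genes or fewer, too few to tell apart from the shares over all genes, and are not read as a feature of the family. The ratio had the same sign in both lines for all 8 genes with reads in all 4 libraries, as for 63.3% of 20298 genes, and for all 7 that averaged 50 or more normalized counts in each line, as for 67.5% of such genes. Of these 8, ALDH7A1 changed sign in A549 with the scaling, and 5 (ALDH1A1, ALDH1A3, ALDH1B1, ALDH2 and ALDH3B1) had intervals excluding 0 in both lines, as did 44.8% of the 20298 genes.

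When the 4 libraries were fitted together with cell line as a block, 0 of the 9 genes kept by the expression filter passed an adjusted p of 0.05 in limma, where 1.29% of 19314 genes were called higher and 1.73% lower. ALDH1A1 had a log2 difference of 1.59 ± 0.389 (SE, n = 4 libraries; limma adjusted p = 0.0797), ALDH2 of 1.10 ± 0.308 (limma adjusted p = 0.113), ALDH1B1 of -0.81 ± 0.259 (limma adjusted p = 0.150) and ALDH1A3 of -0.74 ± 0.289 (limma adjusted p = 0.223). These 4 of 9 were the genes with an unadjusted limma p under 0.05, as were 18.4% of all 19314 genes, and each had its direction in both lines. DESeq2 on the recovered reads called 1 of them, ALDH1A1 (adjusted p = 0.0177), where 3.22% of genes were called higher and 2.68% lower. edgeR called 0 with TMM (1.01% and 1.18% of genes) and 0 with DESeq2 size factors (0.217% and 0.295%). With every gene that had a read, limma called ALDH1A1 (adjusted p = 2.02e-07) and ALDH2 (adjusted p = 0.00625), where 3.33% of genes were called higher and 2.70% lower. The SE of ALDH1A1 was 0.265 in that setting, although its ratios in A549 and HCC827 were 0.73 and 2.48. Calls of that setting thus rest on the spread of other genes, and no difference is concluded from them. The fit has 1 residual degree of freedom, to which limma adds a median of 6.77 from the spread of other genes. The SE and p values of limma thus rest mostly on other genes. A p that misses the threshold does not show that a gene did not differ, and one that passes rests on no replicate within a line.

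Of the other 9 family genes, 1 was past a log2 ratio of 1 in A549 and 3 in HCC827, all higher, and none was lower by that much. The shares over all genes were 18.2% higher and 12.4% lower in A549 and 17.5% and 14.1% in HCC827. ALDH6A1, the mitochondrial methylmalonate semialdehyde dehydrogenase of valine breakdown, had normalized counts of 556 and 1400.5 in A549 (1.33, 1.19 to 1.47) and 506 and 1865 in HCC827 (1.88, 1.75 to 2.02). It was the family gene that passed the fit, where it rose by 1.60 ± 0.287 on the log2 scale (SE, n = 4 libraries; limma adjusted p = 0.0317). The call was lost with edgeR and DESeq2 size factors (adjusted p = 0.0782), with pseudocounts of 0.1 (0.108) and 10 (0.0510) and without the block (1.0). ALDH18A1, which makes a precursor of proline, had nearly the same ratio in both lines, 0.82 (0.77 to 0.88) in A549 and 0.83 (0.76 to 0.90) in HCC827, with a limma adjusted p of 0.118, and passed with DESeq2 (adjusted p = 0.0137) and with every gene that had a read (limma adjusted p = 0.0425). ALDH1L2, the mitochondrial relative of ALDH1L1, had 608 and 617 reads in A549 (0.41) and 7 and 19 in HCC827 (2.10), and ALDH3B2 had a ratio of 1.27 in HCC827. The median was 0.63 over the 8 with a ratio in A549 and 0.36 over the 9 in HCC827.

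The genes around the retinaldehyde dehydrogenases in retinoic acid metabolism were given by a list of 15. Past a log2 ratio of 1, 7 were higher and 1 lower in A549 and 6 higher and 1 lower in HCC827, and in the limma fit 3 rose and 1 fell of the 14 kept. Over all genes, 18.2% were higher and 12.4% lower in A549, 17.5% and 14.1% in HCC827, and 1.29% and 1.73% in the fit. The list's HCC827 count includes LRAT, which rests on 2 and 6 reads there. STRA6, the retinol uptake receptor, had normalized counts of 1453 and 5583 in A549 and 203 and 619 in HCC827, ratios of 1.94 and 1.61 (limma adjusted p = 0.0227). DHRS3, which reduces retinaldehyde back to retinol, had 4556 and 9952 in A549 and 785 and 3790.0 in HCC827, ratios of 1.13 and 2.27 (limma adjusted p = 0.0345). DHRS9, a retinol dehydrogenase, had few reads, 1 and 27 in A549 and 6 and 55 in HCC827 (limma adjusted p = 0.0299). The gene that fell was CYP26A1, a retinoic acid hydroxylase, at 25 and 1 reads in A549 and 302 and 20 in HCC827, ratios of -4.25 and -3.25 (limma adjusted p = 0.0405). Its relative CYP26B1 had the opposite sign, with 216 and 490 reads in A549 and 5 and 19 in HCC827, ratios of 1.57 and 2.59 (limma adjusted p = 0.129). RDH10, which makes the retinaldehyde that ALDH1A enzymes use, had ratios of 0.75 in A549 and 2.28 in HCC827 (limma adjusted p = 0.0762). RARB, a retinoic acid receptor, had 389 and 666 reads in A549 and 0 in both HCC827 libraries. The calls of STRA6, DHRS3, DHRS9 and CYP26A1 were lost with edgeR and DESeq2 size factors, with a pseudocount of 0.1 and without the block. The list's median ratio was 0.75 in A549 and 0.81 in HCC827.

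**Figure D2:**
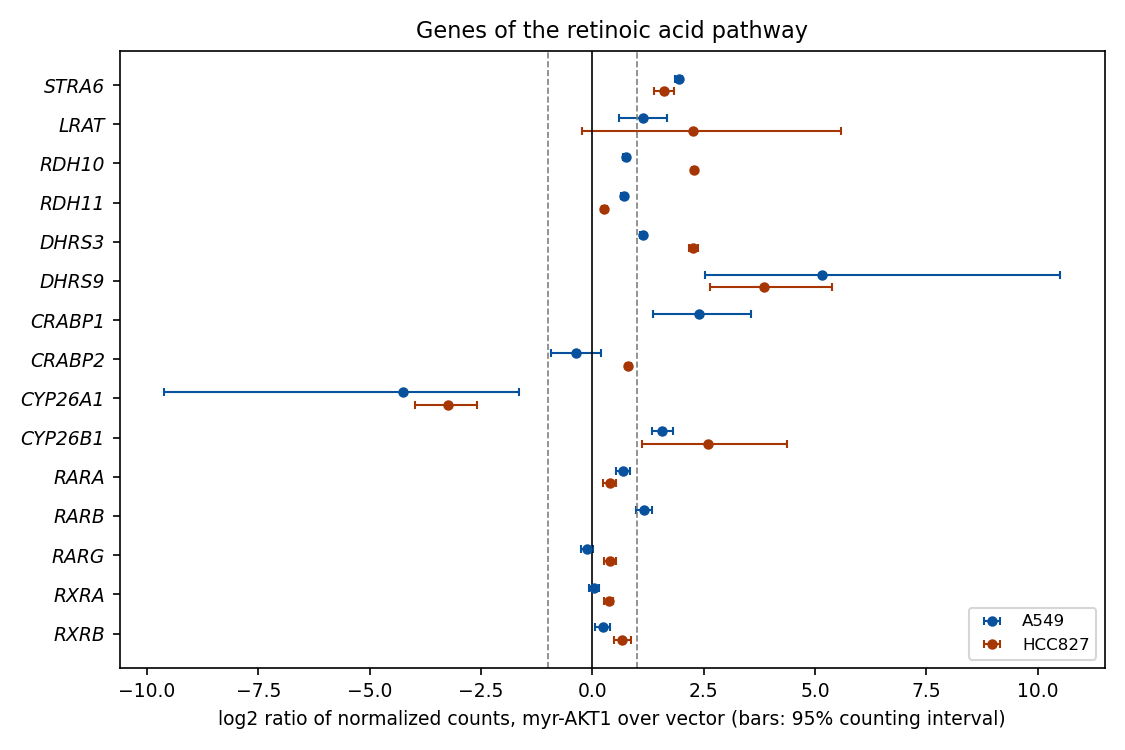
Log2 ratio of normalized counts, myr-AKT1 over vector, for 15 genes of retinoic acid metabolism and signalling in A549 and HCC827, with 95% counting intervals; a gene with no mark for a line had too few reads there. STRA6 (1.94 and 1.61) and DHRS3 (1.13 and 2.27) lie right of 1 and CYP26A1 (-4.25 and -3.25) lies left of -1 in both lines.

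Other enzymes of aldehydes and alcohols, 14 genes, had 4 higher and 1 lower past a log2 ratio of 1 in A549 and 4 higher and 2 lower in HCC827. The shares over all genes were 18.2% and 12.4% in A549 and 17.5% and 14.1% in HCC827. None of the 13 kept passed the limma fit (1.29% and 1.73% of all genes). Of the 13, 6 had an unadjusted limma p under 0.05, beside 18.4% of all genes. In HCC827 the highest ratios of the list were those of 4 aldo-keto reductases. Of the other aldo-keto reductases, AKR1A1 and AKR1B1 had ratios of 0.79 and 0.62 in HCC827 and AKR7A2 of -0.19. AKR1C1 had 15 and 2098 reads there (7.79, 7.07 to 8.63), AKR1C2 had 2 and 513 (8.67, 6.81 to 11.72), AKR1C3 had 765 and 2926 (2.60, 2.48 to 2.72) and AKR1B10 had 900 and 5079 (3.16, 3.06 to 3.26). In A549 the same 4 genes had 15141, 102136, 42437 and 66327 reads with vector, and their ratios were 1.32, 0.51, 0.45 and -0.06. The AKR1C genes are related in sequence to differing degrees, so reads could be split between them, and the part of this in their values was not tested. The alcohol dehydrogenases ADH1C and ADH6 had ratios of 5.06 and 2.56 in A549. In HCC827 ADH1C had 26 and 0 reads, 5.47-fold lower if 0 is taken as 3 reads, and ADH6 had a ratio of -1.87.

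Annotated genes that overlap a member had at most 26 reads in a library, apart from ALDH1A3-AS1. ALDH1A3-AS1, on the opposite strand over ALDH1A3, had 239 and 321 reads in A549 (0.82, 0.57 to 1.06) and 167 and 69 in HCC827 (-0.61, -1.04 to -0.20). It thus had the opposite sign to ALDH1A3 in A549 and the same sign in HCC827, and since the strand setting of the counting is not given in the sources used here, reads of the pair may be mixed. ANXA1, the nearest protein-coding gene upstream of ALDH1A1, 71423 bases away, had ratios of -0.71 in A549 and -0.94 in HCC827, against the sign of ALDH1A1. SLC47A1, the nearest protein-coding gene below ALDH3A2, had 1852 and 966 reads in A549 and 0 and 1 in HCC827, and ULK2, above ALDH3A1, had 2562 and 1646 reads in A549 and 108 and 126 in HCC827. SLC47A1, ALDH3A2, ALDH3A1 and ULK2, which lie in this order on chromosome 17, thus each had fewer reads in both HCC827 libraries than in either A549 library.

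Patterns most like those of the 3 members with the widest range (ALDH3A1, ALDH1A1 and ALDH1A3) were found by the Euclidean distance of centred log2 levels over the 4 libraries. The candidates were 15719 genes with at least 20 reads summed over each line. ALDH3A1 had 0 reads in HCC827, and this filter left out every other gene with 0 reads there. Among the genes kept, ALDH1A1 was nearest to ALDH3A1, at a distance of 6.29. Nearest to ALDH1A1 were THSD7A (2.20), COL12A1 (2.62) and CA12 (2.68). Nearest to ALDH1A3 were CGN (0.39), TBC1D30 (0.42) and LANCL2 (0.43), and CGN, a tight junction protein, had 221 and 56 reads in A549 and 3653 and 1864 in HCC827. With 4 libraries the distance mostly follows the difference between the lines.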

How the data were processed

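RNA from vector and myr-AKT1 cells of A549 and HCC827 was sequenced, 1 library each. Per the labels, ribosomal RNA was depleted and stranded libraries made, whereas the study's methods name poly(A) selection. The authors trimmed adapters, aligned reads with Bowtie2 to hg38 and counted genes with HTSeq. Bowtie2 does not splice reads, which may lower counts over exon junctions, and the strand setting is not given in the sources used here. The deposited signal is read counts divided by a size factor (1.15 and 0.873 for vector and myr-AKT1 in A549, 1.26 and 0.795 in HCC827), although the methods name RPKM: dividing by the value of 1 read gave whole reads within 0.001 for 26983 of 26984, 27094 of 27094, 25879 of 25880 and 25186 of 25186 genes above 0. The authors scaled each line separately, so lines were compared relative to each library's recovered reads.

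Identifiers were named from GENCODE 44 (60261 of 60558). Ratios within a line used no pseudocount, needed more than 3 reads in at least 1 library, and carry 95% Clopper-Pearson intervals. Against 0 reads a bound was set at 3 reads, and the 95% interval can allow a smaller difference than this bound. Both lines were fitted in limma 3.58.1 (R 4.3.3) on log2(value + 1) with a trend, cell line as a block and Benjamini-Hochberg adjustment over genes kept by filterByExpr. Unless said to be a fit, a ratio is the one within a line. Alternatives were edgeR 4.0.16 and DESeq2 1.42.0 on recovered reads, other scalings, pseudocounts, filters and lengths. The fits were tested on simulated data, where limma made more false calls than its threshold sets. Tables and intervals were made in Python 3.11.15 with scipy 1.17.1.

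Named genes were the 10 members, the other family genes, the listed genes, overlapping and nearest protein-coding genes, and the 3 genes nearest in pattern to each of the 3 members with the widest range. Members and lists were chosen with earlier results of these data known, and the motifs and promoter window after the sequences were seen. A few listed genes are not reported here, and list counts leave them out. Nothing says that libraries came from more than 1 culture, so p-values do not measure the spread between cultures. They refer to these libraries only, and in limma they rest mostly on the spread of other genes.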

Additional observations from a re-analysis of the deposited data

Results flagged for a closer look

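Counting intervals excluded 0 in both A549 and HCC827 for 5 of the 10 aldehyde dehydrogenases, and all 5 had the same sign in both lines. The remaining members had an interval that included 0, or no ratio, in at least 1 line. They could therefore not have shown intervals on opposite sides of 0. Of the 90 family, listed and marker genes, 12 had a log2 ratio of myr-AKT1 over vector whose counting interval lay on opposite sides of 0 in A549 and HCC827. This difference between A549 and HCC827 was not tested. The share of all genes with such intervals was not counted, so 12 of 90 is not read as a feature of these genes. The alcohol dehydrogenases ADH1C (5.06 in A549, a bound of -2.45 in HCC827), ADH6 (2.56 and -1.87) and ADH5 (0.33 and -0.22), and the aldehyde oxidase AOX1 (3.78 and -0.97), were higher in A549 and lower in HCC827. The aldo-keto reductase AKR1B10 had ratios of -0.06 in A549 and 3.16 in HCC827. The folate enzyme MTHFD2 had ratios of -0.71 in A549 and 0.16 in HCC827. Among stem-like markers, the ratios were 0.12 and -0.61 for ALCAM, 0.95 and -0.50 for the efflux pump ABCG2, and 0.59 and -0.22 for EPCAM. Among epithelial markers the ratios were 0.23 and -0.35 for KRT7 and 2.65 and -0.75 for KRT19, and the lung lineage factor NKX2-1 had a bound of 1.81 in A549 and a ratio of -0.84 in HCC827.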

How the results depend on the processing

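Each ratio within a line has 1 library per condition, and members with few reads (ALDH1A2, ALDH1L1) and ALDH1A1 in HCC827 vector are limited by depth. In A549 the count of genes lower past log2 1 fell from 2 to 1 among genes that averaged 50 or more normalized counts, where ALDH1A2 is left out, and with a threshold of log2 2 A549 had 0 higher and 0 lower. In the fit over both lines, members called higher numbered 1 with DESeq2 and 2 with all genes that had a read. ALDH7A1 reversed to 0.01 with DESeq2, and the cause was not tested. Genes called higher and lower in the fit were 250 and 335 with limma, 196 and 228 with edgeR and TMM, 42 and 57 with edgeR and DESeq2 size factors, 621 and 518 with DESeq2, 0 and 0 with a pseudocount of 0.1, 105 and 207 with a pseudocount of 10, and 1101 and 894 with all genes that had a read. No replicate block, that is no term for the pairing by cell line, gave 0 and 0 calls over all genes and 0 members, with 631 genes at an unadjusted p under 0.05. Over these alternatives the adjusted p of ALDH1A1 ran from 2.02e-07 to 1.0 and that of ALDH2 from 0.00625 to 1.0. Of the other genes called in the limma fit and named in the text (ALDH6A1, STRA6, DHRS3, DHRS9, CYP26A1, TYMS, CD24, PROM1 and COL1A1), each lost its call with edgeR and DESeq2 size factors (adjusted p 0.0604 to 0.106), with a pseudocount of 0.1 (0.0669 to 0.127) and without the block (1.0), DHRS3, CYP26A1 and CD24 also lost it with edgeR and TMM (0.0506 to 0.0598), and those other than STRA6 and TYMS lost it with a pseudocount of 10 (0.0507 to 0.0904). Of the single ratios, 60 kept within their counting interval and 12 moved, and the sign changed for ALDH7A1 in A549 (-0.02 to 0.08), while ALDH3A2 in HCC827 ran from -0.10 to -0.00. Leaving out a line leaves the fit no residual degrees of freedom, so no test was possible.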

Other observations

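Stem-like markers, the class of genes that ALDH activity is used beside, were given by a list of 12. In the limma fit 2 of the 11 kept rose and none fell, beside 1.29% higher and 1.73% lower over all genes. CD24 had normalized counts of 17047 and 42266 in A549 and 4481 and 10854 in HCC827, log2 ratios of 1.31 and 1.28 (limma adjusted p = 0.0403). PROM1 had 0 reads in both vector libraries and 21 (A549) and 44 (HCC827) with myr-AKT1, at least 9.18- and 23.2-fold higher (limma adjusted p = 0.0142). SOX2 had ratios of 0.74 in A549 and 2.05 in HCC827 (limma adjusted p = 0.0833), and CD44 had ratios of 0.23 and 0.03. BMI1 was lower in both lines, with ratios of -0.30 and -0.48. Counting intervals of the list lay above 0 for 9 genes and below 0 for 1 in A549, and for 4 and 4 in HCC827. Over all genes with reads in both libraries of a line, 27.2% lay above and 29.0% below 0 in A549, and 27.1% and 29.2% in HCC827. These intervals cover counting error only and exclude 0 more readily for genes with many reads. The list's median ratio was 0.67 in A549 and 0.03 in HCC827.

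Folate enzymes around ALDH1L1 were given by a list of 9, of which 1 fell and none rose in the limma fit. Over all genes, 1.73% were called lower and 1.29% higher in that fit. The gene that fell was TYMS, the thymidylate synthase, known as a gene of DNA synthesis in dividing cells, with normalized counts of 1561 and 380.2 in A549 and 856 and 281 in HCC827, ratios of -2.04 and -1.61 (limma adjusted p = 0.0274). MTHFD1, a cytosolic folate-interconverting enzyme, had ratios of -0.91 and -1.13 (limma adjusted p = 0.0717). The list's median ratio was -0.71 in A549 and -0.52 in HCC827.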
